A study of Mus musculus with 6 samples.

Results

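The genes described here are 10 genes of the endoplasmic reticulum (ER) unfolded protein response, namely Hspa5, Hsp90b1, Xbp1, Herpud1, Sdf2l1, Dnajb9, Dnajc3, Pdia4, Calr and Manf. They were chosen by name as chaperones and targets of the transcription factors XBP1 and ATF6. All 10 were found among the 24028 genes of the count table, and all 10 were among the 12969 with enough counts to be tested.

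The cells were C2C12, an immortalised mouse myoblast line, and came from a single clone (MMH6) selected with puromycin for the MMH transgene. MMH is a doxycycline-inducible chimera with codon-altered mouse Dux up to and including its homeodomains at the amino terminus and codon-altered human DUX4 after its homeodomains at the carboxy terminus. The induced group was 3 cultures given 2 µg/ml doxycycline, and the uninduced group was 3 cultures of the same clone without the drug. The series description states 18 h of induction and the sample protocol 36 h, so the time behind each value is uncertain between them. Both groups carry the transgene, and the effect of doxycycline itself cannot be told apart from that of MMH in these 6 libraries.

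Secretory and membrane proteins fold in the ER lumen with the help of chaperones, lectins and disulfide isomerases. When unfolded proteins build up there, the sensors IRE1, ATF6 and PERK are activated. IRE1 splices Xbp1 messenger RNA, ATF6 is cut free by Golgi proteases, and PERK phosphorylates eIF2alpha, which raises ATF4. ATF6 and spliced XBP1 act at ER stress response elements (ERSE) in the promoters of ER chaperone genes, whereas ATF4 acts at composite C/EBP-ATF sites. Myoblasts secrete collagen and other matrix proteins and use this machinery heavily.

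Libraries held 21503384 to 24489531 counts. The scaling factors (TMM, trimmed mean of M-values) were 1.39 to 1.40 in uninduced and 0.712 to 0.719 in induced libraries. The transgene was codon-altered, so the endogenous Dux row does not check it. As a check of induction, the summed Zscan4 genes, which are targets of Dux, stood at 932 to 967 CPM (counts scaled to a common library size, as per-million values) before and 245513 to 251153 CPM after induction, or at least 17.6% of the counts of each induced library. Of 5 tested myoblast markers 4 were lower in induced cells and 1 was not called, while 41.2% of all tested genes were lower. The log2 fold changes of these 5 ran from -2.28 to -0.03. The summed level of 6 markers was 1795 to 1812 CPM before and 1100 to 1134 CPM after induction. Myod1 and Cdh15 were present in both groups but lower in induced cells, at -2.26 and -2.28 on the log2 scale, and Pax7 was at or below 0.259 CPM in every library. Summed markers reached at most 1.61 CPM for macrophages, 2.41 for endothelium, 5.18 for epithelium and 0.399 for adipocytes, and Pecam1 and Tek, which were higher in induced cells, stood at or below 1.37 CPM. Whether the lower level of these myoblast markers has a part in the values below was not tested.

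Promoter windows of 300 bases, from 250 before to 50 after the annotated start, were taken from RefSeq (GRCm38.p6) and matched 9 of the 10 genes, all except Manf. The first set shows the ERSE, spelled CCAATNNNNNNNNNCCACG and searched on both strands, because it is the element at which ATF6 and XBP1 act. A match was found in 4 of the 9 windows, those of Hspa5, Calr, Hsp90b1 and Dnajc3, with 2 matches in Hsp90b1. Of all 32851 promoter windows of this length, 0.119% held one. The 10 genes were chosen as targets of ATF6 and XBP1, so the choice itself favours matches to the ERSE and to its forms below. The matches are printed 5′ to 3′ on the gene's own strand with 15 bases on each side, and capitals mark the match (on the opposite strand it reads CGTGG, 9 bases, ATTGG).
Hspa5, chr2:34772010-34772058, plus strand: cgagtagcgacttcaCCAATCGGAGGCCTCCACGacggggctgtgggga
Calr, chr8:84847060-84847108, minus strand: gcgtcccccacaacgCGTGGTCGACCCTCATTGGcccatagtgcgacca
Hsp90b1, distal match, chr10:86705623-86705671, minus strand: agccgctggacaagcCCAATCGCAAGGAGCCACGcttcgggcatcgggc
Hsp90b1, proximal match, chr10:86705518-86705566, minus strand: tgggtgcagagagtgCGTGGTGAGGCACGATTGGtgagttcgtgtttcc
Dnajc3, chr14:118937812-118937860, plus strand: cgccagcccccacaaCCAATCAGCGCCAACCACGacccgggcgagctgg

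The Hspa5 match began 65 bases and the Dnajc3 match 105 bases upstream of the start. Without the last base (CCAATNNNNNNNNNCCAC, which overlaps the full ERSE), Pdia4 and Herpud1 also held a match, for 6 of 9 windows against 0.365% of all windows. Herpud1 alone of the 9 held the ERSE-II, ATTGGNCCACG, present in 0.0365% of all windows. The UPRE core TGACGTGG was found in 0 of the 9 windows and in 0.676% of all windows.

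The second set shows the C/EBP-ATF composite, spelled TGANGCAA and searched on both strands. This motif was added after the values and the windows had been seen, so the choice itself could favour matches in the genes that rose. The motif matched in 2 of the 9 windows, those of Dnajb9 and Herpud1, and in 3.69% of all windows. For that reason these shares are not a test. Only the spellings given here were searched, so other sites in these windows, that of Dnajb9 included, could have been missed. The matches are printed because they belong to the genes with the largest fold changes described below. Capitals mark the composite, with 15 bases on each side.
Dnajb9, chr12:44210186-44210223, minus strand: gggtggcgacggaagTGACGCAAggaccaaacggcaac
Herpud1, upstream match, chr8:94386284-94386321, plus strand: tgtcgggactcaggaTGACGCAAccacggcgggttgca
Herpud1, downstream match, chr8:94386302-94386339, plus strand: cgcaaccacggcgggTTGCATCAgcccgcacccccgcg
In the whole Herpud1 window, chr8:94386179-94386478 on the plus strand, capitals mark the composites, then the ERSE-II, then the ERSE lacking its last base.
Herpud1 window: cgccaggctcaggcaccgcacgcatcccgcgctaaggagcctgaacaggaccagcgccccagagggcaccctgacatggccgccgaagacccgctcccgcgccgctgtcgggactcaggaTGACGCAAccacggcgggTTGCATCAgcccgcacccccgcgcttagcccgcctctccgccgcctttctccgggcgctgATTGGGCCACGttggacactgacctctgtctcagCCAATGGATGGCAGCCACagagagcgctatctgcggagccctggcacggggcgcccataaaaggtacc
A match of letters is a description of the window and does not show that a factor bound there.

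**Figure D1:**
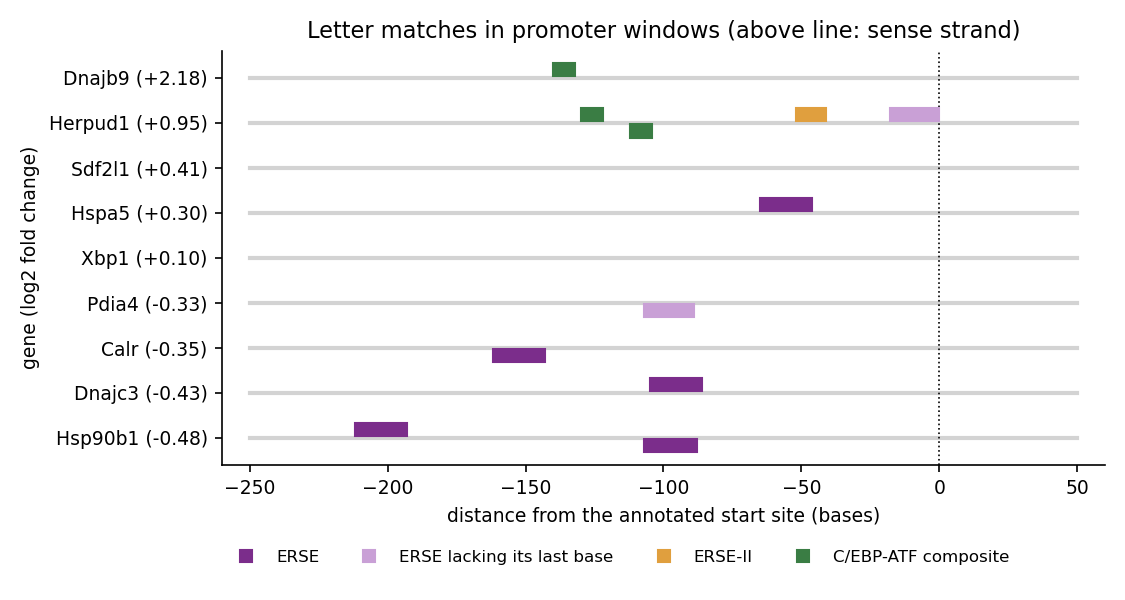
Letter matches in the promoter windows of 9 genes, ordered by log2 fold change (in brackets). The x axis is the distance from the annotated start site in bases, and boxes above or below a line are matches on the sense or the antisense strand. Full ERSE matches lie in Hspa5, which rose, and in Calr, Dnajc3 and Hsp90b1, which fell.

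The comparison asked how the 10 genes differed between cells with and without MMH induction. They did not move as a block. Dnajb9 rose 4.53-fold and Herpud1 1.93-fold, Sdf2l1 and Hspa5 rose by less, and Hsp90b1, Dnajc3, Calr, Pdia4 and Manf fell to between 0.718 and 0.851 of their uninduced level. Xbp1 was not called. With edgeR's quasi-likelihood test and a Benjamini-Hochberg adjusted p under 0.05 over all tested genes, 4 of the 10 were called higher, 5 lower and 1 not called. Among all tested genes 82.5% were called, 41.3% higher and 41.2% lower, so the share of the 10 genes called is near the background. Their median log2 fold change was -0.07, against -0.01 for all tested genes. For 9 of the 10 genes every induced library lay on one side of every uninduced one in CPM, as it did for 83.1% of all tested genes. Bulk RNA does not tell fewer cells of a kind from less RNA per cell.

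TMM scaling places the middle of the tested genes near 0, and each direction above is read against it. When libraries were scaled by their size alone, the median log2 fold change over tested genes was -0.97, and 1 of the 10 genes was higher, 8 lower and 1 not called, beside 15.2% of all tested genes higher and 76.7% lower. Dnajb9 was the gene that stayed higher, at 1.22 on the log2 scale (edgeR adjusted p = 5.4e-14). Herpud1 stood at -0.02 (edgeR adjusted p = 0.769), Sdf2l1 at -0.56 and Hspa5 at -0.67. A change of scaling shifts the values of all genes by nearly the same amount. The place of each gene among all tested genes was therefore bound to hold, and is given as a description only. The fold change of Dnajb9 lay above that of 92.7% of tested genes under either scaling, that of Herpud1 above 81.1%, and that of Hsp90b1 above 29.3%.

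**Figure D2:**
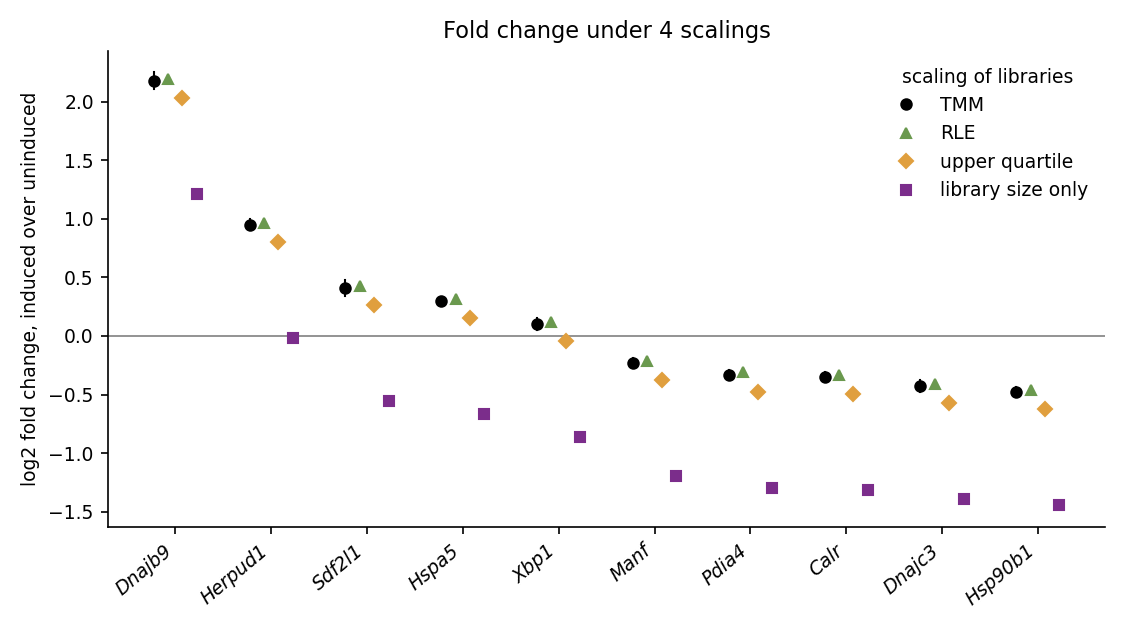
Log2 fold change (y axis, induced over uninduced) of the 10 genes under 4 scalings of the libraries, with bars of 1 SE on the TMM values. The order of the genes is the same under all 4, from Dnajb9 to Hsp90b1, because a scaling shifts all genes by nearly the same amount. Library size alone places every gene but Dnajb9 at or below 0.

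Among the main chaperones, Hspa5 rose while Hsp90b1 and Calr fell. Hspa5 (BiP, the ER member of the Hsp70 family, which also holds the stress sensors inactive) lies on chromosome 2 at 34772090 to 34776529 of GRCm38. It stood at 949, 904 and 944 CPM in uninduced and at 1123, 1159 and 1155 CPM in induced libraries. Every induced library lay above every uninduced one. The log2 fold change was 0.30 ± 0.04 (SE, edgeR adjusted p = 1.9e-07). Hsp90b1 (GRP94, the ER member of the Hsp90 family) lies on chromosome 10 at 86690841 to 86705444. It stood at 978, 929 and 951 CPM in uninduced and at 681, 692 and 679 CPM in induced libraries. The groups did not overlap. Its change on the log2 scale was -0.48 ± 0.04 (SE, edgeR adjusted p = 4.2e-11). A pseudogene, 1810014B01Rik, overlaps Hsp90b1 on the opposite strand in GENCODE, and its reads cannot be told apart without strand. A processed transcript, Gm15344, overlaps 977 bases of Hsp90b1 on the same strand. Calr (calreticulin, a calcium-binding lectin chaperone of glycoproteins) lies on chromosome 8 at 84842088 to 84846931. It stood at 776, 774 and 804 CPM in uninduced and at 600.3, 634 and 616 CPM in induced libraries. All induced values were below all uninduced ones. Calr changed by -0.35 ± 0.04 on the log2 scale (SE, edgeR adjusted p = 1.8e-08).

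Hspa5 and Hsp90b1, a pair usually described as induced together in ER stress, had nearly equal counts in uninduced cells. The ratio of Hspa5 to Hsp90b1 counts was 0.971, 0.972 and 0.992 in uninduced libraries and 1.65, 1.67 and 1.70 in induced libraries. This ratio is taken within each library and does not depend on scaling. Both promoters held the ERSE shown above.

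The co-chaperones of BiP moved in different directions. Dnajb9 (ERdj4, a J-domain protein that brings BiP to IRE1) lies on chromosome 12 at 44205897 to 44210068. It stood at 14.0, 14.2 and 12.1 CPM in uninduced and at 65.8, 59.6 and 57.6 CPM in induced libraries. It was the lowest of the 10 genes in uninduced cells, and its groups were far apart. The log2 fold change was 2.18 ± 0.07 (SE, edgeR adjusted p = 6.1e-19), and its raw counts also rose, from 369 to 469 in uninduced to 921 to 1154 in induced libraries. Dnajc3 (p58IPK, another J-domain partner of BiP) lies on chromosome 14 at 118937932 to 118981702. It stood at 83.8, 83.3 and 78.3 CPM in uninduced and at 60.1, 63.4 and 58.8 CPM in induced libraries. The induced values were all lower. Dnajc3 changed by -0.43 ± 0.05 on the log2 scale (SE, edgeR adjusted p = 2.5e-08). Within libraries, the ratio of Dnajb9 to Dnajc3 counts went from a mean of 0.164 ± 0.00872 to 1.00 ± 0.0800 (SD, n = 3 each). Sdf2l1 (a luminal partner of J-domain proteins) lies on chromosome 16 at 17130138 to 17132383. It stood at 24.5, 22.9 and 24.7 CPM in uninduced and at 31.5, 29.1 and 35.0 CPM in induced libraries. The groups did not overlap, although the induced libraries spread more widely than for the other genes (coefficient of variation 9.39%). The log2 fold change was 0.41 ± 0.07 (SE, edgeR adjusted p = 1.0e-05).

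Herpud1, a membrane protein of ER-associated degradation that binds the HRD1 ubiquitin ligase complex, lies on chromosome 8 at 94386429 to 94395371. It stood at 49.0, 51.5 and 50.8 CPM in uninduced and at 101, 93.3 and 97.3 CPM in induced libraries. The level about doubled on this scale in every induced library. The log2 fold change was 0.95 ± 0.05 (SE, edgeR adjusted p = 6.1e-15). Its raw counts were 1550 to 1637 in uninduced and 1441 to 1779 in induced libraries and so overlapped. An antisense transcript, Gm15890, overlaps Herpud1 in GENCODE.

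Pdia4 (ERp72, a disulfide isomerase) lies on chromosome 6 at 47796141 to 47813512. It stood at 175, 176 and 185 CPM in uninduced and at 138, 143 and 146 CPM in induced libraries. Its groups did not overlap, and the log2 fold change was -0.33 ± 0.04 (SE, edgeR adjusted p = 1.5e-07). Manf, a small ER protein that binds BiP and is secreted under stress, lies on chromosome 9 at 106888753 to 106891938. It stood at 141, 140.1 and 148 CPM in uninduced and at 125, 118 and 121 CPM in induced libraries. This was the smallest of the 5 falls. Manf changed by -0.23 ± 0.04 on the log2 scale (SE, edgeR adjusted p = 2.8e-05). The GENCODE model of Manf starts at 106838312, outside the positions above, and overlaps Rbm15b and Dcaf1. Its exon length is therefore less certain than those of the others. Whether its counts are affected is not known, because the annotation used for counting is not given.

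Xbp1, the transcription factor whose messenger RNA is spliced by IRE1, lies on chromosome 11 at 5520641 to 5525993. It stood at 100.2, 106 and 109.8 CPM in uninduced and at 108, 112 and 119.96 CPM in induced libraries. The lowest induced library lay below the highest uninduced one. The log2 fold change was 0.10 ± 0.05 (SE, edgeR adjusted p = 0.0553), with a 95% interval of 0.01 to 0.20. The adjusted p ranged from 1.2e-14, with library size alone and a fold change of -0.86, to 0.581 without the low-count filter, leaving aside the test against 1.5-fold. It fell to 0.0218 without uninduced replicate 3 and to 0.0221 without induced replicate 1. Gene counts do not separate spliced from unspliced Xbp1 messenger RNA, so the activity of IRE1 cannot be read from this row.

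**Figure D3:**
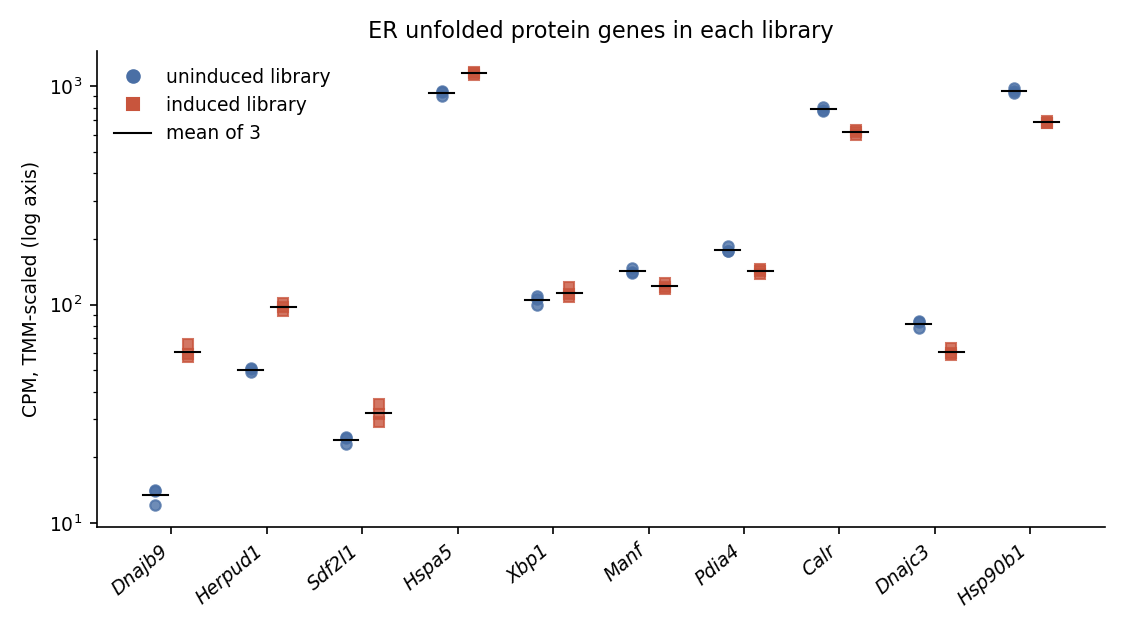
Level of each of the 10 genes (y axis, CPM on TMM-scaled library sizes, log axis) in each of 3 uninduced (circles) and 3 induced libraries (squares), with the mean as a line. The 2 groups overlap for Xbp1, and the widest gap is that of Dnajb9, with 12.1 to 14.2 CPM before and 57.6 to 65.8 CPM after induction.

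Levels were compared between genes as CPM per kilobase of exon (GENCODE M21). In uninduced cells the order was Calr at 359 ± 7.65, Hsp90b1 at 337 ± 8.60 and Hspa5 at 248 ± 6.63 CPM per kilobase (SD, n = 3), then Pdia4, Manf, Xbp1, Herpud1, Sdf2l1, Dnajc3 and, lowest, Dnajb9 at 5.47 ± 0.480. No neighbours in that order overlapped between libraries. In induced cells Hspa5 came first at 305 ± 5.21 CPM per kilobase, followed by Calr at 282 ± 7.63 and Hsp90b1 at 242 ± 2.45 (SD, n = 3). Pdia4, Herpud1, Manf, Xbp1, Sdf2l1 and Dnajb9 came next, and Dnajc3 was last at 11.8 ± 0.460. In induced cells Herpud1 overlapped with Manf, Manf with Xbp1, and Sdf2l1 with Dnajb9 between libraries. The order of Herpud1 and Manf, and that of Manf and Xbp1, changed from library to library. Sdf2l1 stood above Dnajb9 within each induced library, at 28.4, 26.2 and 31.6 against 26.7, 24.2 and 23.4 CPM per kilobase.

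The make-up of the 10 genes was also described by each gene's share of their summed counts, which is free of any scaling between libraries. The 10 genes held 0.456% ± 0.00633 of all counts in uninduced and 0.220% ± 0.00275 in induced libraries (SD, n = 3), while their summed level on TMM-scaled libraries went from 3267 ± 57.4 to 3074 ± 35.4 CPM. The share of Hspa5 rose from 28.5% ± 0.306 to 37.3% ± 0.224, and that of Hsp90b1 went from 29.2% ± 0.492 to 22.2% ± 0.213 (SD, n = 3 each). Calr went from 24.0% ± 0.381 to 20.1% ± 0.330. Dnajb9 went from 0.412% ± 0.0414 to 1.99% ± 0.160 and Herpud1 from 1.54% ± 0.0604 to 3.17% ± 0.168. The shares of Sdf2l1 and Xbp1 were also higher, and those of Dnajc3, Pdia4 and Manf lower, in every induced library than in any uninduced one. For each of the 10 genes the exact permutation test gave a two-sided p of 0.1 (0.1 after adjustment over the 10), the smallest that 3 against 3 libraries allow, so no share could pass 0.05. Shares add up to a fixed total, so a higher share of one gene lowers the others.

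**Figure D4:**
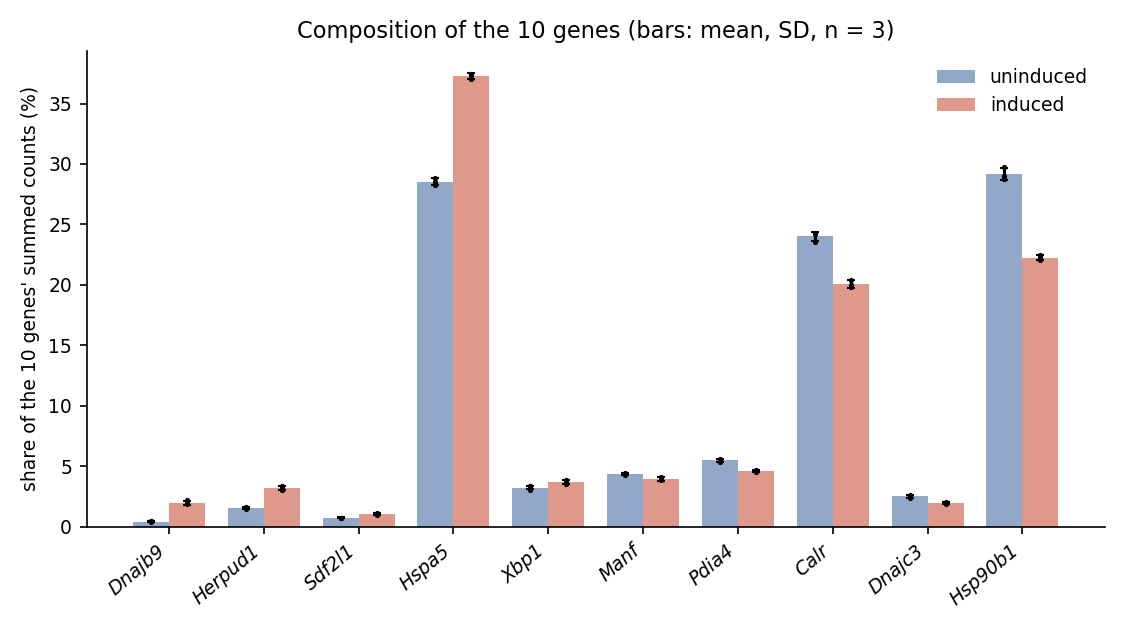
Share of each gene in the summed counts of the 10 genes (y axis, %), as the mean of 3 uninduced or 3 induced libraries with the SD as error bar and each library as a point. Hspa5 went from 28.5% to 37.3% while Hsp90b1 went from 29.2% to 22.2% and Calr from 24.0% to 20.1%.

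Other genes of the response and of the secretory pathway were counted in 7 lists. Of 23 other folding factors of the ER lumen, 5 were higher, 14 lower and 4 not called, with a median log2 fold change of -0.20. Ero1l, the oxidase that recharges disulfide isomerases, rose from 42.3 ± 0.51 to 141 ± 4.76 CPM (SD, n = 3), and Dnajc1, a membrane J-domain protein, rose by 1.27 ± 0.05 on the log2 scale (SE). Fkbp11, a prolyl isomerase of secretory cells, fell by 1.60 ± 0.10 and Txndc11 by 1.25 ± 0.08 (SE). P4hb and Pdia6, abundant disulfide isomerases named after their values were seen, stood at -0.70 and -0.51 on the log2 scale, both called lower. The family did not move as 1. Pdia3 was called lower at -0.23, whereas Pdia5 was called higher at 1.10 (edgeR adjusted p = 2.3e-14), both also named after their values were seen. Canx, the membrane-bound relative of calreticulin, was at 0.00 and not called, but it was called lower with upper-quartile scaling (-0.14, edgeR adjusted p = 0.00261) and with library size alone (-0.96, edgeR adjusted p = 2.0e-17).

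Of 18 tested genes of ER-associated degradation (19 listed), 6 were higher, 6 lower and 6 not called, with a median of 0.04. That median turned to -0.10 with upper-quartile scaling and to -0.92 with library size alone, beside -0.16 and -0.97 for all tested genes. Vimp, which links the p97 ATPase to the ER membrane, went from 50.1 ± 2.64 CPM in uninduced cells to 188 ± 4.90 CPM after induction (SD, n = 3). On the log2 scale it rose by 1.90 ± 0.05 (SE), with an edgeR adjusted p of 3.5e-21. Herpud2, the paralogue of Herpud1, rose by 0.94 ± 0.06, close to the 0.95 of Herpud1, and like it was near 0 with library size alone (-0.02, edgeR adjusted p = 0.732). The mannosidase-like Edem2 fell by 0.65 ± 0.08 on the log2 scale (SE). Its paralogues Edem1 and Edem3 were not called, at 0.10 and -0.05. Edem1 was called higher with RLE scaling (0.12), and with library size alone both were lower, at -0.86 and -1.02. Of the HRD1 complex, Syvn1 was called higher at 0.46 and Sel1l was not called at 0.08, both named after their values were seen. Both calls depended on the scaling. With library size alone Syvn1 was lower at -0.50 and Sel1l at -0.88 (edgeR adjusted p = 5.4e-10 and 2.6e-15), and with RLE scaling Sel1l was called higher at 0.10 (edgeR adjusted p = 0.0421).

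Of 10 tested sensors and transducers (11 listed), 5 were higher, 4 lower and 1 not called, with a median of 0.23. Under upper-quartile scaling the median was 0.08, and under library size alone it turned to -0.74, beside -0.16 and -0.97 for all tested genes. Eif2ak3, which encodes PERK, stood at 19.2, 17.9 and 17.3 CPM in uninduced and at 85.2, 81.9 and 81.1 CPM in induced libraries. Its log2 fold change was 2.19 ± 0.06 (SE, edgeR adjusted p = 8.2e-21), nearly that of Dnajb9, and it stood at 1.23 with library size alone. Ern1, which encodes IRE1alpha, rose by 1.21 ± 0.08, whereas Atf6, picked for naming once its value was known, stood at -0.26 and was called lower. Creb3l1, a transcription factor cut in the Golgi like ATF6, fell by 1.57 ± 0.05 and Mbtps2, a protease that makes that cut, by 1.55 ± 0.10 (SE). Other genes of this list, named after their values were seen, went both ways. Creb3l2 and Creb3 were called higher at 0.76 and 0.40, Mbtps1 lower at -0.70, and Atf6b was not called at 0.06. With library size alone Creb3l2 stood at -0.20 and Creb3 at -0.57.

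Of 8 genes of the PERK and ATF4 arm, 7 were higher and 1, Atf5, was not called, and their median was 0.96. Scaled by library size alone, 4 were higher and 4 lower and the median was 0.00. Under that scaling 15.2% of all tested genes were higher and 76.7% lower, with a median of -0.97. Atf3, a stress-induced transcription factor, rose by 4.48 ± 0.07 and Ppp1r15a, which encodes the phosphatase subunit GADD34, by 2.70 ± 0.05 (SE). Atf4 and Ddit3 (CHOP), named after their values were seen, were called higher at 0.47 and 0.49 and stood at -0.49 and -0.47 with library size alone.

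Translocation and N-glycosylation genes were mostly lower, since 17 of the 23 fell, 3 rose and another 3 were not called (median -0.20). Spcs3, a signal peptidase subunit, fell by 1.66 ± 0.05 and Ssr1, a subunit of the translocon-associated complex, by 1.04 ± 0.04 (SE). Stt3b, a catalytic subunit of oligosaccharyltransferase, rose by 0.60 ± 0.04 and Srpr, the signal recognition particle receptor, by 0.19 ± 0.04 (SE), but both were lower with library size alone, at -0.36 and -0.78. With upper-quartile scaling Srpr was not called (0.04, edgeR adjusted p = 0.357). Among 20 genes of ER to Golgi transport, 15 were lower and 4 higher, 1 was not called, and the median was -0.53. Kdelr3 and Kdelr2, receptors that return KDEL-tailed proteins such as BiP to the ER, fell by 1.51 ± 0.06 and 1.36 ± 0.05 (SE), while the coat subunit genes Sec24b and Sec24a rose by 0.83 ± 0.05 and 0.75 ± 0.06. All 4 tested genes described as substrates of IRE1-dependent decay (5 listed) were lower, with a median of -1.23, and Scara3 had no count in any library. Pdgfrb, a receptor tyrosine kinase, fell by 3.37 ± 0.06 and Col6a1, a collagen chain, by 1.49 ± 0.06 (SE). In this fit, 41.3% of all tested genes were higher and 41.2% lower.

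**Figure D5:**
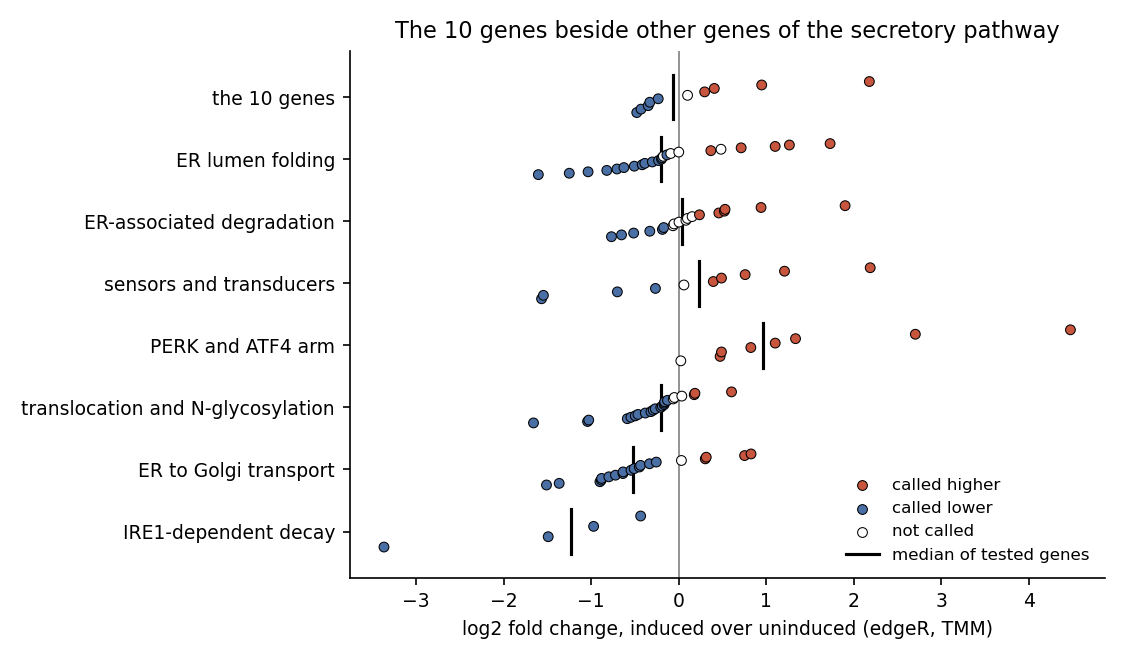
Log2 fold change (x axis, induced over uninduced, TMM scaling) of each tested gene in the 10 genes and in 7 further lists, coloured by call, with the median of each list as a bar. The PERK and ATF4 arm has the highest median, 0.96, the transport and IRE1-dependent decay lists the lowest, -0.53 and -1.23, and the 10 genes lie on both sides of 0.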

How the data were processed

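Polyadenylated RNA from 6 C2C12 cultures was prepared with a TruSeq RNA v2 kit, per the labels' protocols. Per the submitters' processing notes, the tools were CASAVA, Bowtie2 2.2.3 and TopHat2 2.0.12, and the build was mm10. The authors deposited raw counts of reads per Entrez gene. Which program counted the reads, with what annotation and strand setting, is not given in the sources used here. Replicates were not pooled, per the file headers.

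Counts were analysed in R 4.3.3 with edgeR 4.0.16 (filterByExpr, TMM, glmQLFit with robust=TRUE, glmQLFTest, group as the only term, Benjamini-Hochberg over all tested genes). The SE was taken as the absolute log2 value over the root of the F statistic. DESeq2 1.42.0, limma 3.58.1 (voom), other scalings, filters, thresholds, a replicate block and each library left out were alternatives. The test was checked on simulated data in which few genes changed, in both directions. That check had no shift in library make-up like the one seen here, so it does not bear on the scaling. Positions and promoters came from RefSeq (GRCm38.p6, the assembly of mm10), exon lengths and overlaps from GENCODE M21.

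Named genes were the 10 genes, the up to 2 largest rises and 2 largest falls of each list among called, non-overlapping genes averaging 1 CPM or more, and the induction check. One gene that this rule names is not reported here. The 10 genes and all lists were chosen with earlier results of these data known. Cells with doxycycline but no transgene were not analysed here.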

Additional observations from a re-analysis of the deposited data

How the results depend on the processing

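Each of the 10 genes had at least 369 counts in every library, and the choice of scaling moved their values more than leaving out any library did. With library size as the only scaling Hspa5 stood at -0.67, Sdf2l1 at -0.56, Xbp1 at -0.86 and Herpud1 at -0.015 on the log2 scale, and, of the listed genes, Herpud2 at -0.022, Stt3b at -0.36, Srpr at -0.78, Sec24b at -0.14 and Sec24a at -0.21, each opposite in sign to its TMM value. Under that scaling 1 of the 10 genes was higher and 8 lower. Listed genes called higher then numbered 3 for lumen folding, 1 for degradation, 2 for sensors, 4 for the PERK arm, 0 for translocation and 0 for transport. Those called lower numbered 19 for lumen folding, 16 for degradation and 8 for sensors. For the PERK arm, translocation and transport they numbered 4, 23 and 20. Of all tested genes 15.2% were then higher and 76.7% lower. With upper-quartile scaling Xbp1 was at -0.043, 1 gene of the PERK arm was lower and 1 translocation gene was higher. Under it 4593 of all 12969 tested genes were higher and 6191 lower.

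Against a 1.5-fold change (glmTreat) 2 of the 10 genes were higher and 0 lower by this edgeR test. Of all 12969 tested genes, 3039 were higher and 2510 lower against that bound. The calls lost had log2 fold changes of 0.30 (Hspa5), 0.41 (Sdf2l1), -0.48 (Hsp90b1), -0.43 (Dnajc3), -0.33 (Pdia4), -0.35 (Calr) and -0.23 (Manf), all smaller than that bound. Against the same bound 2 degradation, 3 sensor, 0 translocation and 2 transport genes were higher, and 5 lumen folding, 1 degradation, 3 translocation and 7 transport genes were lower. Xbp1 was called higher with RLE scaling (0.12), with a minimum of 1 CPM (0.11) and with the replicate block (0.10). It was at 0.061 to 0.14 with 1 library left out.

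Libraries with equal numbers correlated at 0.0166 to 0.0604 in their deviations from the group means, under the 0.1 taken to show pairing, and with the replicate block 5 of the 10 genes were higher and 5 lower. Of all 12969 tested genes, 5411 were higher and 5402 lower with that block. With 1 library left out, 4 to 5 of the 10 were higher and 5 lower. Of the 13105 to 13200 genes then tested, 5228 to 5391 were higher and 5130 to 5300 lower. Per kilobase of exon the share changes were 6.86 points for Hspa5, -6.34 for Hsp90b1, 2.36 for Herpud1, 0.789 for Sdf2l1, 1.79 for Dnajb9, -0.263 for Dnajc3 and -4.53 for Calr, all in the direction of the raw shares.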

Other observations

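Paralogues of the COPII coat subunit SEC24, which selects cargo for export from the ER, split by subfamily. This was seen after the values were known. Sec24a stood at 34.0, 31.2 and 31.3 CPM in uninduced and at 58.9, 50.9 and 52.7 CPM in induced libraries, and Sec24b at 55.0, 56.2 and 54.9 against 101.8, 91.6 and 101.0 CPM. Both were higher in every induced library than in any uninduced one. Sec24c stood at 122, 121 and 117 CPM in uninduced and at 93.9, 94.2 and 97.3 CPM in induced libraries, and Sec24d at 124, 124 and 117 against 70.1, 68.9 and 70.8 CPM. Their log2 fold changes were -0.33 ± 0.04 and -0.80 ± 0.05 (SE), with edgeR adjusted p values of 1.8e-07 and 4.5e-14. Scaled by library size alone, all 4 paralogues were below 0, from -0.14 for Sec24b to -1.76 for Sec24d, in the same order.

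The KDEL receptors, which recognise the tail shared by BiP, GRP94 and calreticulin, were also described after their values were seen. Kdelr1 went from a mean of 95.6 CPM to 50.8, 53.3 and 51.8 CPM in induced libraries, and its groups did not overlap. Its log2 fold change was -0.88 ± 0.05 (SE, edgeR adjusted p = 1.3e-14), and Kdelr2 and Kdelr3 stood lower still, at -1.36 and -1.51. All 3 receptor genes had more negative fold changes than any of the 10 genes described above, of which the lowest was Hsp90b1 at -0.48.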
